A study of Drosophila melanogaster with 2 samples.

Results

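The Polycomb and trithorax group genes described here are 35 named genes of Drosophila melanogaster, out of 13968 protein-coding genes annotated on the X and Y, chromosome 4 and the arms 2L, 2R, 3L and 3R. They were examined for binding of a dimm-eGFP fusion protein by chromatin immunoprecipitation and sequencing (ChIP-seq) in whole embryos. The genes were chosen by a list of names and by their values in these same peak lists, so every value below is a description and no test was made. For each gene, the rule took the peak summits in its annotated span and in the 1 kb upstream of it. All 35 names matched the annotation.

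The series has 1 group of 2 biological replicates. Both came from embryos of the strain dimm-GFP, collected over the first 0 to 24 hours, that carried an insertion expressing dimm fused to enhanced green fluorescent protein (eGFP). Chromatin was precipitated through GFP, so the tag and not the native protein was recognized. Whole embryos mix all tissues, and dimm is a basic helix-loop-helix factor best known from peptide-secreting neuroendocrine cells, so the cells in which a region was bound cannot be told apart. No control library was used here.

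Polycomb group proteins keep developmental genes silent, and trithorax group proteins keep them active. Polycomb repressive complex 2 (PRC2) methylates histone H3, and Polycomb repressive complex 1 (PRC1) binds that mark and ubiquitinates histone H2A. DNA-binding factors such as Pho and the GAGA factor recruit them, and on the trithorax side stand histone methyltransferases and the ATP-driven Brahma remodeler.

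The deposited data are peak lists with a signal value for each peak. The signal was computed by the authors on a scale not given in the sources used here, so it was compared only within a list. The conservative list, made from both replicates, held 1739 merged regions with signals from 24.3 to 926 and a median of 91.6. Replicate 1's own list held 1176 regions (median 59.6) and replicate 2's held 1114 (median 62.2), and 819 of the regions of replicate 1 overlapped one of replicate 2. Longer ranked lists gave every candidate peak, 139701 on these chromosomes behind the conservative list, 106765 in replicate 1 and 113898 in replicate 2. Each candidate has the −log10 of its irreproducible discovery rate (IDR), which is small where a rank repeats well between sets of peaks, and listed regions all reach 2, which is an IDR of 0.01. The depth of the libraries is unknown.

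The 6 sequences below are from the genes' strongest candidates by signal. Each is a summit with 50 bp on either side, from the plus strand of build dm6. The first 4 are summits of the conservative list, in ph-p (a PRC1 subunit gene), Trl (the GAGA factor), osa and brm (subunits of the Brahma remodeler). The last 2, in trx and tara, passed the IDR threshold but are missing from the conservative list and from each replicate's own list. They are therefore not counted as bound. Capitals mark the letters GAGAG or GCCAT on either strand, the core letters of the sites of the GAGA factor and of Pho. None of the 6 holds CANNTG, the E-box to which factors of the dimm class bind.
ph-p, chrX:2137303-2137403: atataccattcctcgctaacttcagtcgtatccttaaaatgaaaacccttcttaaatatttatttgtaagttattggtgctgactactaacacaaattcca
Trl, chr3L:14759448-14759548: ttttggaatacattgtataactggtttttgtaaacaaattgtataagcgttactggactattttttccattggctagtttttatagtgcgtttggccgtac
osa, chr3R:17704371-17704471: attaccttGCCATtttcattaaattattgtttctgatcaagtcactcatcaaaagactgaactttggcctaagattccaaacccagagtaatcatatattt
brm, chr3L:15982972-15983072: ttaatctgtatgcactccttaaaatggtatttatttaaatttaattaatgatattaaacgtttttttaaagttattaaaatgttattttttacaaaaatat
trx, chr3R:14283857-14283957: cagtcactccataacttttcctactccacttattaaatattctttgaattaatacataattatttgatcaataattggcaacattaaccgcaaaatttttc
tara, chr3R:16236934-16237034: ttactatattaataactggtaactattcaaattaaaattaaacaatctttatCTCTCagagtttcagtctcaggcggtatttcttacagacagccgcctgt

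Across the conservative list, 10 of the 35 genes held a summit (28.6%), where 11.2% of all protein-coding genes did. These were ph-p, ph-d, Psc, E(z), caly, brm, osa, kis, Trl and Alh. In replicate 1's own list 10 of the 35 were bound (28.6%, against 8.21% of all protein-coding genes), and in replicate 2's own list 8 (22.9%, against 7.8%). The 8 genes of replicate 2, ph-p, ph-d, Psc, E(z), brm, osa, kis and Trl, were bound in both replicates' own lists (22.9%, against 6.16%) and in the conservative list as well.

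These counts depended on the window. In the conservative list, 6 of the 35 genes held a summit in the gene span without the upstream kilobase, where 5.78% of all protein-coding genes did. A summit within 500 bp of a transcription start site (TSS) of the gene was found for 6 of the 35, where 6.92% of all protein-coding genes had one. In both replicates' own lists that count was 4 of the 35, where it was 3.9% of all protein-coding genes. The genes were selected on these lists, so nothing is read from the gap to the background. The members are also long genes, with a median span of 7983 bp against 2164.5 bp for all protein-coding genes, and the 10 bound members had a median of 12954.5 bp against 6487 bp for the other 25. The part of gene length in these counts was not tested.

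By complex, of the PRC1 genes 3 of 7 were bound in the conservative list, and of the remodeler genes 3 of 5. For PRC2 the count was 1 of 7, for the histone H2A deubiquitinase PR-DUB 1 of 2, and for the remaining genes, which include Trl, 2 of 5. The 3 genes of the Pho repressive complex (PhoRC), the 4 of the trithorax methylation enzymes and the 2 of the Mediator kinase module had 0 summits there. Taken by side, 5 of the 19 genes of Polycomb complexes and 5 of the 16 others were bound. By the same rule 11.2% of all protein-coding genes were bound. The classes are small and the genes were selected on these lists, so nothing is read from differences between classes.

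**Figure D1:**
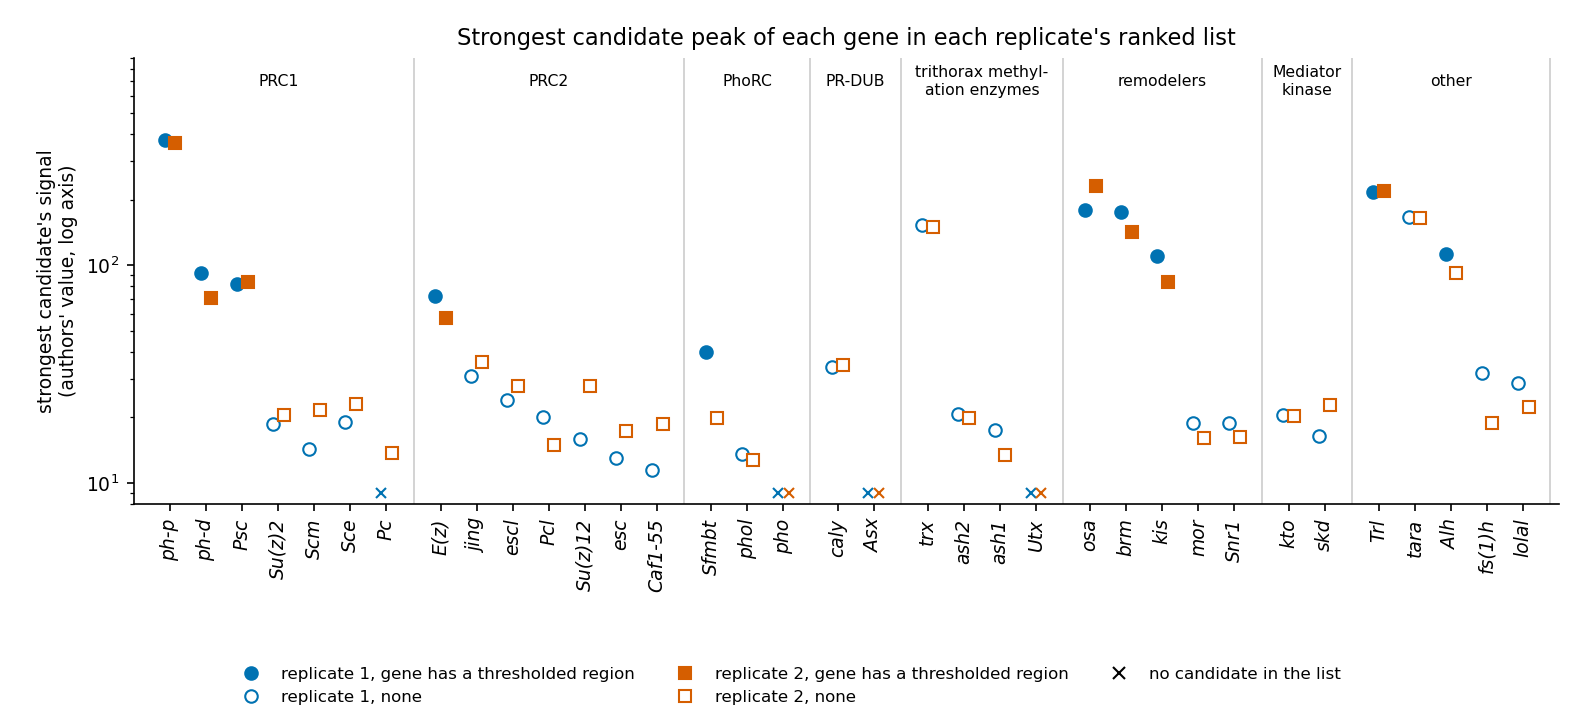
Signal of the strongest candidate peak in each gene's window, in the ranked list of replicate 1 (blue circles) and of replicate 2 (orange squares), on a log axis, with genes grouped by complex. Filled points mark genes with a region in that replicate's thresholded list, and crosses mark genes with no candidate. ph-p is highest in both replicates (375 and 364), and trx and tara are open although their signals lie among those of the bound genes. The points of Alh (113 and 91.7) are a candidate missing from the thresholded lists. That of replicate 1 is filled because of another, weaker region of Alh (39.4).

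Among the PRC1 genes, ph-p stood far above the rest. It and ph-d are neighbouring copies that encode Polyhomeotic, a subunit that joins PRC1 particles through its SAM domain. The strongest ph-p region (chrX:2137243-2137477) had a signal of 740 and rank 6 of the 1739 regions of the conservative list. Its signal was 375 in replicate 1 (rank 6) and 364 in replicate 2 (rank 7), with summits 10 bp apart. The summit lay in an intron, 498 bp from the nearest annotated TSS of ph-p and 1018 bp from the gene's 5' end.

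A second ph-p region lay in the 5' UTR, 460 bp from the 5' end (chrX:2137827-2137960). It had a signal of 307 in the conservative list (rank 87), 152 in replicate 1 and 150 in replicate 2, with summits 7 bp apart. These regions were high in both replicates. The third, in an intron 1275 bp from a TSS of ph-p (chrX:2135195-2135498), was weak, with a signal of 78.7 and rank 1084. It was listed in replicate 1 (43.0, rank 980) but not in replicate 2, where its candidate had a signal of 33.1 and a −log10 IDR of 0.059. The fourth, also intronic (chrX:2134341-2134644), had a signal of 54.0, rank 1684 and a −log10 IDR of 2.15, just inside the threshold. Its candidates, 32.6 in replicate 1 and 27.6 in replicate 2, were in neither replicate's own list.

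**Figure D2:**
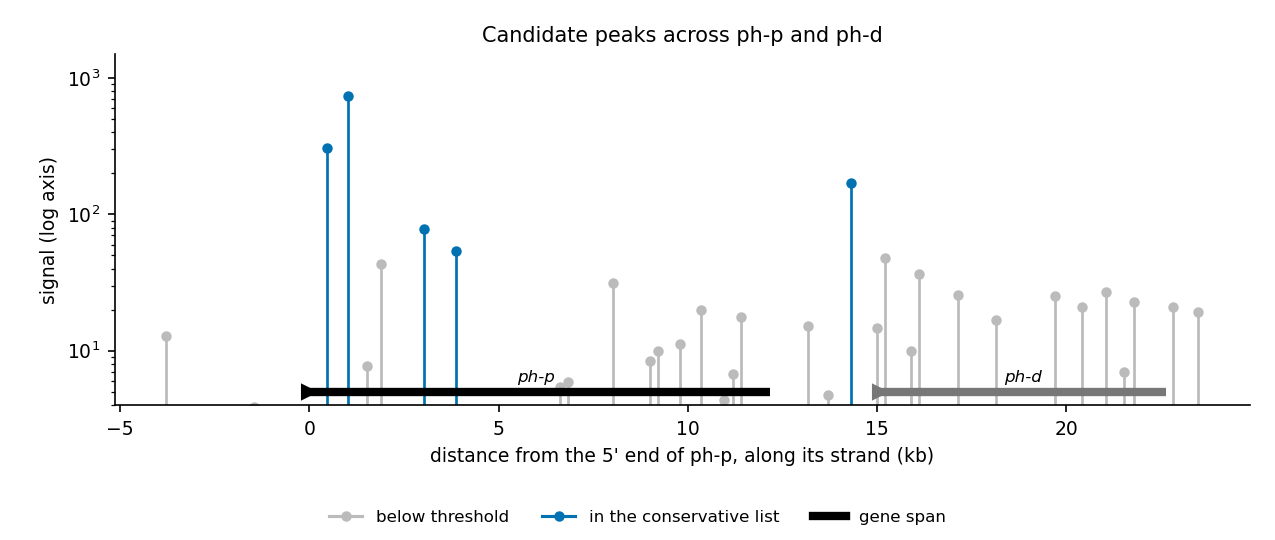
Signal (log axis) of the candidate peaks of both replicates along ph-p and ph-d, by distance in kb from the 5' end of ph-p along its strand; black and grey bars are the gene spans, arrowheads their 5' ends, and blue points are regions of the conservative list. The regions with signals of 740 and 307 lie within the first kilobases of ph-p, and the region of ph-d (169) lies upstream of its 5' end.

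The region of ph-d lay 777 bp upstream of it (chrX:2123911-2124214) and was weaker than the main ph-p regions. Its signal was 169 in the conservative list (rank 284), 92.2 in replicate 1 (rank 254) and 71.0 in replicate 2 (rank 430), with summits 45 bp apart. The Psc region (chr2R:12975444-12975747) lay in an intron of this gene for a RING-domain PRC1 subunit, 5062 bp from its TSS. It had a signal of 161 in the conservative list (rank 320), 81.8 in replicate 1 and 83.5 in replicate 2, with summits 1 bp apart. Its sequence is 40.1% soft-masked in the reference genome.

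The other 4 PRC1 genes stayed below the threshold. The strongest candidate had a signal of 26.4 in Su(z)2, a paralogue of Psc on the same chromosome, 25.8 in Scm and 25.3 in Sce, the RING-domain ubiquitin ligase. In Pc, whose chromodomain binds methylated histone H3, it was 23.5, with no candidate at all in replicate 1. A strong region, with a signal of 483 and rank 25, lay between Psc and Su(z)2 (chr2R:12985111-12985313), 10308 bp outside the window of Su(z)2. It was nearer to Psc, less than 5 kb upstream of that gene but outside its window too.

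In PRC2, E(z), the methyltransferase itself, was the bound gene. Its region lay in the 5' UTR, 97 bp from the TSS (chr3L:10637824-10638127), and also fell in the window of the neighbouring gene Cnep1r2. The signal was 132 in the conservative list (rank 468), 72.5 in replicate 1 (rank 407) and 57.5 in replicate 2 (rank 639), with summits 49 bp apart, the widest gap among the members. The sequence at the summit was 13.9% G and C.

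The other 6 PRC2 genes had strongest candidates of 22.4 to 51.2, all under the IDR threshold. The highest was that of jing, a zinc-finger gene whose span of 119787 bp held 144 candidates; its strongest candidate had a signal of 51.2 and rank 2661. The candidate of escl, a paralogue of esc, came closest to the threshold, with a signal of 47.3 and a −log10 IDR of 1.80. Those of Pcl (38.5), Su(z)12 (28.8), esc (27.8) and the histone-binding subunit gene Caf1-55 (22.4) were lower.

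PhoRC, which ties Polycomb complexes to DNA, had no region in the conservative list. Sfmbt, its histone-binding partner, was listed in replicate 1 with a signal of 40.0 (rank 1057) and a −log10 IDR of 2.20. In replicate 2 the candidate had a signal of 19.9 and a −log10 IDR of 0.055, so the replicates differed. In the list of both replicates not marked conservative, it stood at 61.3 and rank 1569, 228 bp upstream of Sfmbt and 137 bp from the TSS of CG5439. The strongest candidate of phol, a DNA-binding relative of pho, was 25.6, and pho itself had none.

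In PR-DUB, caly, the deubiquitinase Calypso, had a weak region (chr2R:16196657-16196960) with a signal of 65.9, rank 1381 and a −log10 IDR of 2.49. The summit lay 476 bp upstream of caly but 233 bp from the TSS of CG42837, and it also fell in the windows of Lipt1 and CG44242. Neither replicate listed it alone, with candidates of 34.1 (−log10 IDR 1.34) and 34.9 (1.68). Its partner Asx had no candidate.

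On the trithorax side, the methylation enzymes gave a split picture. trx, the founding methyltransferase of the group, held an intronic candidate (chr3R:14283815-14283963) with a signal of 314 among the ranked candidates. That was rank 89 of the candidates, with a −log10 IDR of 4.95, and the summit lay 2996 bp from the TSS. In the replicates' ranked lists the candidate had signals of 152 and 150, ranks 103 and 94 and a −log10 IDR of 5 in each. It overlaps no peak of the conservative list or of either replicate's own list. A second, weaker region of trx (chr3R:14277904-14278207) had a signal of 57.4 in the list not marked conservative, and a −log10 IDR of 1.95 in the ranked list behind the conservative one.

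The other 3 genes of this class showed little inside their windows. The strongest candidate was 36.9 in ash2, a subunit of histone methyltransferase complexes, and 26.0 in ash1, itself a methyltransferase. Utx, a histone demethylase gene, had none. Just outside the window of ash1, 157 bp past its 3' end, lay the region with rank 2 of the whole list, with a signal of 888 (chr3L:19590495-19590740). That summit lay 92 bp from the TSS of CG14100, and its signal was 452 in replicate 1 and 435 in replicate 2.

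All 3 bound remodeler genes repeated in both replicates. The strongest was osa, whose product is a subunit of one form of the Brahma remodeler, with 2 intronic regions far from its own TSS. The first (chr3R:17704315-17704488) had a signal of 413 in the conservative list (rank 39), 180 in replicate 1 (rank 59) and 231 in replicate 2 (rank 30), with summits 1 bp apart. It lay 13929 bp from the nearest TSS of osa and 726 bp from that of lncRNA:CR46035. The second (chr3R:17700425-17700728) had signals of 191, 101.3 and 92.0 in the same 3 lists and summits 13 bp apart. It lay 17773 bp from the TSS of osa and 164 bp from that of lncRNA:CR46036.

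The region of brm, the ATPase of the Brahma remodeler, lay at a shared promoter (chr3L:15982940-15983081). The summit was 153 bp upstream of brm and 113 bp from the TSS of Arl1. Its signal was 319 in the conservative list (rank 80), 176 in replicate 1 (rank 63) and 143 in replicate 2 (rank 94), with summits 17 bp apart. Its sequence is 77.5% soft-masked, and the summit window is 14.9% G and C.

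The region of kis, which encodes a chromodomain ATPase, lay in an intron 1606 bp from its TSS (chr2L:223513-223588). The summit was 49 bp from the TSS of lncRNA:CR44222. The sequence of the region is 53.9% soft-masked. The signal was 195 in the conservative list (rank 215), 110 in replicate 1 (rank 176) and 83.9 in replicate 2 (rank 321), with summits 39 bp apart. The remaining remodeler genes, mor (33.5) and Snr1 (25.9), and the Mediator genes kto (37.0) and skd (28.5) had strongest candidates below the threshold. Upstream of mor, 579 bp outside its window, lay a candidate with a signal of 80.9 (chr3R:15974340-15974643). It passed the IDR threshold but is missing from the conservative list, and its signals were 44.8 in replicate 1 and 44.5 in replicate 2.

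Of the other members, Trl was the strongest. It encodes the GAGA factor, which binds GA-rich promoters and Polycomb response elements. One region lay in an intron 1536 bp from a TSS of Trl (chr3L:14759383-14759600), with a signal of 440 in the conservative list (rank 32), 217 in replicate 1 (rank 40) and 220 in replicate 2 (rank 35). The summits were 20 bp apart. The other lay in the 5' UTR, 135 bp from a TSS (chr3L:14757049-14757352), and in the window of CG42507 as well. Its signals were 149, 84.8 and 67.9, with summits 14 bp apart. A further region of 56.6 was found in the list not marked conservative, and in replicate 1 with a signal of 40.0.

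Alh, a gene for a PHD-finger protein, was bound weakly just upstream. The summit lay 104 bp before its TSS, in the window of CG10098 too (chr3R:7124137-7124440), with a signal of 72.5, rank 1220 and a −log10 IDR of 2.38. Replicate 1 listed it at 39.4 (rank 1073), and replicate 2 did not list its candidate of 29.6 (−log10 IDR 1.49). A stronger intronic candidate 577 bp from a TSS of Alh (chr3R:7108997-7109074) had a signal of 206 and a −log10 IDR of 4.24 but was missing from the conservative list. Its signals in the replicates' ranked lists were 113 and 91.7, so the listed region was the weaker of the pair.

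The transcriptional co-regulator gene tara had 3 such missing candidates in introns. The strongest (chr3R:16236913-16237029) had a signal of 335, rank 76 of all candidates and a −log10 IDR of 5, with 166 in each replicate, and lay 5832 bp from a TSS of tara. The others had signals of 65.3 and 54.3, with a −log10 IDR of 2.40 and 2.19. In the replicates' ranked lists both stayed below the threshold. There the −log10 IDR was 1.33 and 1.17 for the candidate of 65.3, and 0.123 and 0.371 for that of 54.3. A further missing candidate, with a signal of 350, and a listed region with a signal of 696 and rank 9 (chr3R:16222383-16222605) lay upstream of tara and outside its window, 148 bp and 2150 bp beyond the edge.

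**Figure D3:**
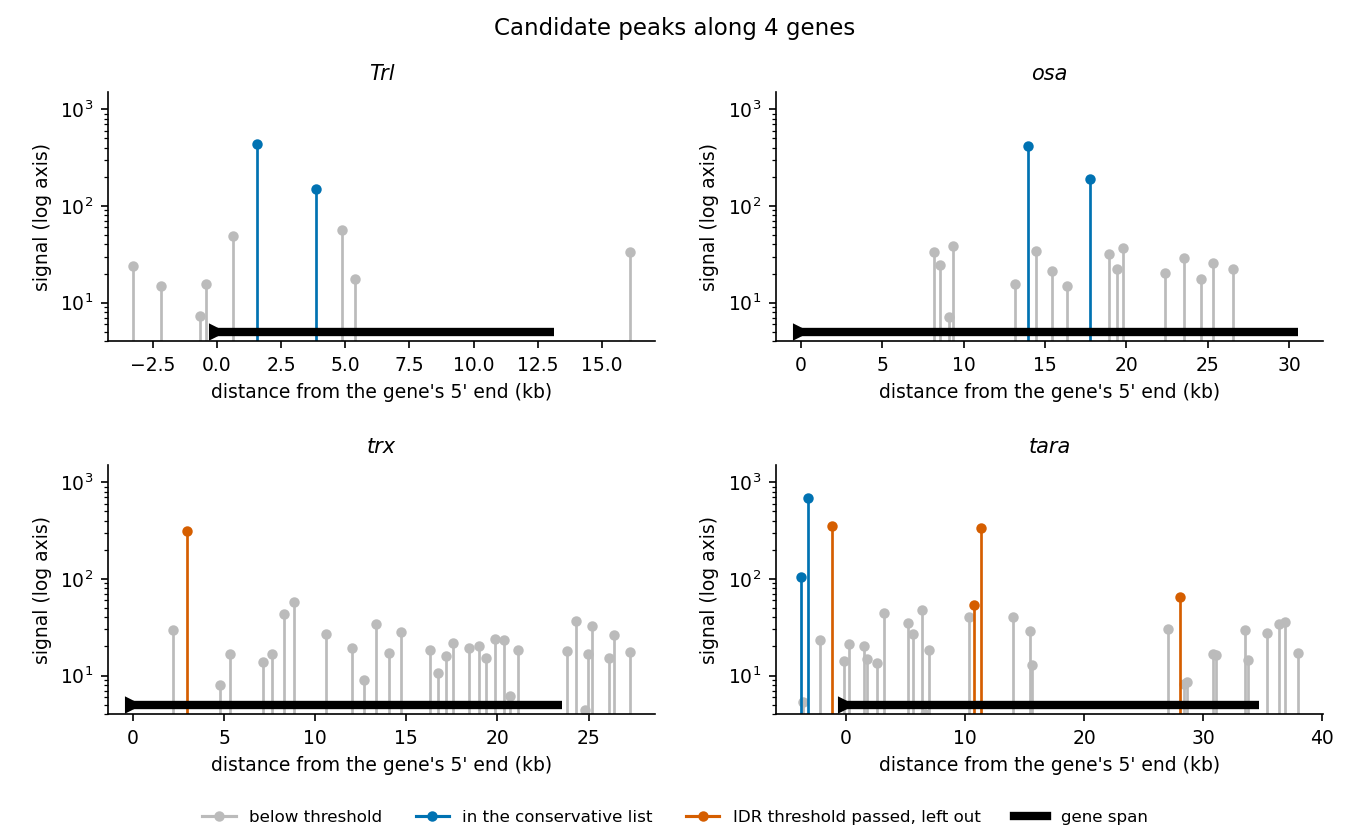
Signal (log axis) of the candidate peaks of both replicates along Trl, osa, trx and tara, by distance in kb from each gene's 5' end; black bars are the gene spans, blue points regions of the conservative list and orange points candidates that passed the IDR threshold and are not in it. The orange points of trx (314) and tara (335) stand between the taller and the shorter blue points of Trl and osa, and the tallest blue point at tara (696) lies upstream of the gene.

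Thus 3 of the 35 members (8.57%) held a candidate past the threshold that the conservative list lacks, where 0.265% of all protein-coding genes did. The rule asked for these candidates, so nothing is read from that gap. With them, 12 of the 35 members had a region or candidate past the threshold. The share of all protein-coding genes by this combined rule is not given here, so the 12 is a description only. The 5 candidates belong to 78 in the whole ranked list, of which 34 also passed the threshold in both replicates' ranked lists and 0 overlapped a peak of either replicate's own list. The 78 had a median signal of 80.9 and were on average 27.1% soft-masked, against 20.0% for the listed regions. None of the 5 at members has another copy in the genome at 90% identity over 50% of its length. Why they are missing was not tested. The sample notes derive the thresholded lists from 1 more input file than the ranked lists and do not say what that file held.

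The threshold fell between close values. Of the listed regions, those just inside it were the weakest ph-p region (54.0, −log10 IDR 2.15), Alh (72.5, 2.38) and caly (65.9, 2.49). Just outside lay the weaker trx region (57.4, 1.95), escl (47.3, 1.80), the further Trl region (56.6, 1.77) and lolal (48.8, 1.54), a BTB-domain gene whose product interacts with the GAGA factor. The trx and Trl regions had higher signals than the listed ph-p region. Sfmbt had a higher signal still (61.3) with a −log10 IDR of 1.25, and fs(1)h, a bromodomain gene, had 50.6 with 1.02. Apart from Sfmbt, which replicate 1 listed, 19 members had candidates of which none passed. Their strongest signals ran from 22.4 to 51.2 with a median of 28.5.

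The candidates themselves were missing at 3 members (8.57%), pho, Asx and Utx, where 15.4% of all protein-coding genes had none. Each lies in an interval without a single ranked candidate of both replicates. That interval was 145.8 kb long around Utx (chr2L:10201112-10346916), 116.1 kb around pho (chr4:1163139-1279204) and 19.3 kb around Asx (chr2R:14496612-14515910). Between candidates on 2L, 2R, 3L, 3R and X the median interval was 422 bp, and 6 of 115171 reached 100 kb. Chromosome 4, where pho lies, held 69.0 candidates per Mb, against 1056 on 2L, 2R, 3L and 3R together. So for these 3 genes the lists give no value, high or low.

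Some unbound members had listed regions next door. Within 5 kb beyond the window, 7 of the 25 members that the conservative list leaves unbound had one (28%), where 15% of all unbound protein-coding genes did. This count was made after the values had been seen, and nothing is read from the gap. For phol it was a region with a signal of 411 and rank 41 (chr3L:9457705-9457877), 1519 bp upstream of the gene and 112 bp from the TSS of CG3552. For Caf1-55 it had a signal of 700 and rank 7, 1969 bp downstream and 125 bp from the TSS of Art3. For Pc it had a signal of 249 and rank 138, 1566 bp downstream and 86 bp from the TSS of CG11309. Those of Pcl (99.0) and skd (106) were weaker, and that of ash1 is given above. At tara, a region with a signal of 105 and rank 718 (chr3R:16221684-16221987) lay beside the one with a signal of 696 given above.

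Taken as regions, the 10 bound genes held 15 of the 1739 (0.863%), with signals from 54.0 to 740 and a median of 169. Of these, 11 lay above the median of the list, 91.6. The same number, 11, were in both replicates' own lists, with summits 1 to 49 bp apart (median 14 bp), where the median over all shared regions was 16 bp. The share of all 1739 regions found in both lists is not given here. All 11 lay within 100 bp, as did 98.8% of all shared regions. Because the conservative list already required the replicates to agree, this adds no separate check. None of the 15 has another copy in the genome by the same criterion.

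**Figure D4:**
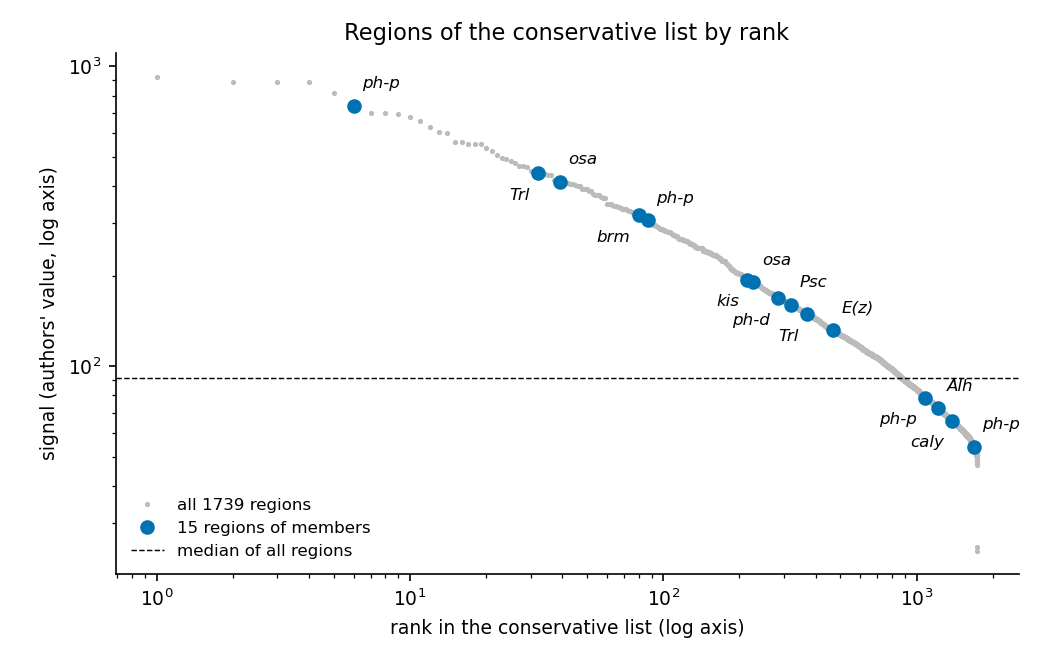
Signal against rank (both log axes) for the 1739 regions of the conservative list in grey, with the 15 regions of Polycomb and trithorax group genes in blue and labelled by gene; the dashed line is the median of all regions (91.6). The member regions run from rank 6 (ph-p, 740) to rank 1684 (ph-p, 54.0), and 11 of them lie above the line.

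Their positions within genes varied. The summit lay in an intron of the member for 8 regions, in its 5' UTR for 3 and upstream of it for 4. A TSS of some gene lay within 500 bp of 9 of the 15 summits (60%, 95% Wilson interval 35.7 to 80.2%, counting error only), beside 43.9% of all regions of the list. The interval treats the 15 as separate draws, but they come from 10 genes, with 4 in ph-p. They were also taken from windows that include the promoter, so nothing is read from the gap. For 7 of the 15 that TSS could be the member's own, and 8 summits also fell in the window of another gene, and for these the genes cannot be told apart by position.

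The summits lay in AT-rich sequence. Windows of 50 bp on either side of the 15 summits had a median of 30.7% G and C (13.9 to 48.5%), beside 31.7% for all regions and 43.6% for windows at 19275 annotated TSS. The letters CANNTG occurred in 2 of the 15, Psc and caly (13.3%), in 33.2% of all regions and in 43.7% of TSS windows. Its form CATATG occurred in 0 of the 15, in 3.91% of all regions and in 2.09% of TSS windows. All motifs were searched on both strands.

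The letters tied to Polycomb recruitment were counted in the same way. GAGAG occurred in 2 of 15 (13.3%), those of Alh and caly, beside 8.80% of all regions and 12.7% of TSS windows. With 100 bp on either side of the summit, or over the whole peak, it occurred in 5 of the 15. The shares of all regions and TSS windows were counted only for the narrower window. Nothing is therefore read from the 5. GCCAT occurred in 3 of 15 (20%), those of E(z), kis and the stronger osa region, beside 14.4% and 16.8%. Of the letters of insulator and promoter factors, CGATA (BEAF-32) occurred in 2 of 15 (13.3%), in Alh and the 5' UTR region of ph-p, beside 11.5% and 23.6%. TATCGATA (DREF), which contains CGATA, occurred in 0 of 15, beside 0.748% and 4.48%. The strongest ph-p windows, those with signals of 740 and 307, share the 12-letter word TAAAATGAAAAC. It occurs in 3 of all 1739 windows (0.173%), these ph-p windows included, and in 3 TSS windows (0.0156%). That word was found by searching the members' windows, and a match of letters is a description only.

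Other genes of the same pathways were counted in the same way. Of 36 further Polycomb and trithorax genes, among them subunits of the COMPASS methyltransferases and of the Brahma, Mi-2 and Iswi remodelers, 0 held a summit in the conservative list, beside the 11.2% of all protein-coding genes. These 36 were chosen with earlier results of these data known. Nothing is therefore read from the gap to the background or to the members. The strongest candidates of the 29 with any had a median signal of 33.3. polybromo, a Brahma remodeler subunit gene, was listed in replicate 1 (36.1) but not in replicate 2. It also stood in the list not marked conservative (56.3, rank 1733). Mi-2, a chromodomain ATPase gene, was listed in replicate 2 alone, with a signal of 100.8 and rank 220, at a site where replicate 1 had no candidate (chr3L:19903133-19903412). That summit lay in an intron, 6942 bp from the nearest TSS of Mi-2, and also fell in the window of Su(Tpl). Kdm2, a histone demethylase gene, held 3 candidates past the threshold that are missing from the conservative list, the strongest with a signal of 170 and a −log10 IDR of 3.88.

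Of 11 genes known as targets of Polycomb silencing (the homeotic genes, en, inv and hh), 2 were bound in the conservative list (18.2%, beside 11.2% of all protein-coding genes). This list too was chosen with earlier results known, and nothing is read from the gap. Antp, a homeotic gene of the thorax, had 2 regions, the stronger with a signal of 94.8 and rank 833 in an intron 12624 bp from its TSS. This stronger region also fell in the window of CG46458. Dfd, a homeotic gene of the head, had a region with a signal of 58.1 and rank 1609, 678 bp upstream. Replicate 1 alone listed Antp (48.5), and replicate 2 listed 0 of the 11.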

How the data were processed

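The authors deposited 8 peak lists on dm6, as the labels state: for each replicate and for both together, ranked candidates and regions past an IDR threshold, 1 of the latter marked conservative. The signal of each peak and the −log10 of its global IDR are used as deposited by the authors. The aligner and peak caller were not given in the sources used here, nor was the normalization. Depth is unknown, so no precision could be taken from it.

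Within each list, peaks of the main chromosomes sharing 1 bp or more were joined, keeping the summit of highest signal. A gene was bound when a summit lay in its span or 1 kb upstream (Ensembl 115 annotation). A missing candidate had a −log10 IDR of at least 2 and overlapped no peak of the thresholded list. Sequences came from genome Release 6 (the coordinates of dm6), and 0 candidates ended beyond a chromosome. Copies were sought with blastn 2.17.0. Other steps used Python 3.11.15, pandas 2.3.3, numpy 2.4.6 and pysam 0.24.0. Of these, the window rule, the joining of peaks and the distance to a TSS were tested on planted positions.

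The members, the other gene lists and the alternatives were chosen with earlier results of these data known. All members were accounted for. Those with a summit in the conservative list or either replicate's own list are given with their values in each, the others by their strongest candidate, and of the other lists the bound genes are named. Positions are 1-based.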

Additional observations from a re-analysis of the deposited data

How the results depend on the processing

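The count of bound members in the conservative list, 10, fell to 6 in the gene span without the upstream kilobase and to 6 within 500 bp of a TSS of the gene. The count in both replicates' own lists, 8, fell to 4 within 500 bp of a TSS. GAGAG, in 2 member windows of 50 bp on either side of the summit, was in 5 when the window was 100 bp on either side and in 5 over the whole peak. A longer sequence holds more words, and no background was counted for these lengths. The other Polycomb and trithorax genes went from 0 to 1 without either replicate, and the Polycomb targets from 2 to a range of 0 to 1. Every other alternative listed stayed within 1.5 times the value given, among them the stronger 50% of regions (8 members), 5 kb upstream (13) and the list not marked conservative (12). For these counts the share of all protein-coding genes is not given here, so they are not compared with it. No paired analysis was possible because there is 1 group and no test. Depth is unknown, so a gene without a region was not detected in these lists, which does not show that it is unbound.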
